A study of Homo sapiens with 6 samples.

Results

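The 44 genes described here encode the core machinery that copies nuclear DNA, together with regulators of the G1/S transition of the cell cycle. They were picked by symbol for these roles, and all 44 were found among the 34036 genes listed in the count table. RNA was sequenced from HepG2, an established line from a human hepatocellular carcinoma. The comparison asked how transcript levels differ after knockdown of DGUOK, the mitochondrial deoxyguanosine kinase, which phosphorylates purine deoxynucleosides for mitochondrial DNA synthesis. The siDGk group (labelled siDGUOK, 3 libraries) received a pool of siRNAs against DGUOK, and the siCON group (labelled siControl, 3 libraries) a non-targeting siRNA. Both groups were transfected with Lipofectamine RNAiMAX and harvested after 48 h, and each library is stated to be an independent biological replicate. In these libraries the siRNAs of the pool were used as 1 mixture and cannot be compared with each other. The paper also tested individual DGUOK siRNAs, by RT-qPCR, Western blot and lipid staining. In the labels, the treatment entry of all 6 libraries reads control siRNA, and the groups therefore follow the titles and library names.

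Before S phase, the origin recognition complex, CDC6 and CDT1 load the MCM2-7 helicase onto DNA as an inactive ring. CDC45, the GINS complex and MCM10 then turn the ring into an active helicase, after which polymerase alpha-primase, the PCNA clamp with its RFC loader, polymerases delta and epsilon, and finally FEN1 and LIG1 make and join the new strands. Cyclin D1 and cyclin E act with their kinases on RB1 to free E2F factors, which activate many replication genes; adult hepatocytes are mostly quiescent, whereas HepG2 cells divide in culture.

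Library totals were 19065684, 18915508 and 10527216 counts in siCON replicates 1, 2 and 3, and 18613138, 15978314 and 21334876 counts in siDGk replicates 1, 2 and 3. Levels are given in CPM, counts per 1000000 of the library size as scaled by edgeR's TMM method. DGUOK was at 54.4, 53.1 and 48.2 CPM in siCON and at 9.08, 10.5 and 6.72 CPM in siDGk replicates 1, 2 and 3. Each library named siDGk was thus far below each named siCON, at a log2 fold change of −2.57 (SE 0.19).

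The hepatocyte label was checked with 10 markers, all of them tested. Their summed level was 56290, 50990 and 49580 CPM in siCON and 30210, 27050 and 25720 CPM in siDGk replicates 1, 2 and 3. ALB had the highest CPM of them in siCON and SERPINA1 in siDGk, without scaling by exon length. Hepatocyte transcripts were abundant in every library. Of the 10, 8 were called lower in siDGk cells, against 6.68% of the 14476 genes tested. A call meant a Benjamini-Hochberg adjusted p under 0.05 in edgeR's quasi-likelihood test and an absolute log2 fold change above 0.5, here and below. The sum of 3 endothelial markers was 1.66, 1.39 and 2.29 CPM in siCON and 3.78, 56.2 and 4.05 CPM in siDGk replicates 1, 2 and 3. siDGk replicate 2 stood apart, with VWF, its most abundant endothelial marker, at 31.4 CPM, while VWF had 0 counts in siCON replicate 3 and siDGk replicate 3, PECAM1 in siCON replicate 2, and CDH5 in siCON replicates 1 and 2. None of the 3 was called in edgeR's test, against 14.1% of all genes. An unadjusted p under 0.05 in that test was found for 2 of them, against 30.6%. Among 5 leukocyte markers LYZ held nearly all counts in every library; without it the sum was 3.53, 6.55 and 4.77 CPM in siCON and 5.24, 11.7 and 5.57 CPM in siDGk replicates 1, 2 and 3, again highest in siDGk replicate 2. Of 5 fibroblast and stellate markers 4 were tested. ACTA2 was the most abundant in each library, and the sum was 44.2, 41.6 and 36.5 CPM in siCON and 62.0, 60.6 and 47.1 CPM in siDGk libraries. All siDGk sums were above the siCON sums, though of the 4 tested members 2 had a log2 fold change above 0 and 2 below. ACTA2 was among the latter, at −0.18. COL1A1 was called higher (0.48, 1.97 and 1.05 CPM in siCON, 20.2, 20.7 and 17.4 CPM in siDGk) and PDGFRB lower, while DCN had 0 counts in all siCON libraries and in siDGk replicate 3, and COL1A2 in siCON replicates 2 and 3 and siDGk replicate 3. The part of these transcripts in the results was not tested, but the log2 fold changes of both called members and of some others are given with and without siDGk replicate 2.

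All 44 genes passed the filter on low counts. Of the 44 members 2 were called (4.55%), against 14.1% of the 14476 genes tested. CCND1, which encodes cyclin D1, was higher in siDGk cells (1 member, against 7.42% of all genes called higher). LIG1, which encodes the ligase that seals Okazaki fragments, was lower (1 member, against 6.68% called lower). MCM3 also passed the adjusted p but had a smaller fold change, so that 3 members passed the adjusted p alone, against 19.7% of all genes: 1 was higher in siDGk cells, against 10.3%, and 2 were lower, against 9.35%. At an unadjusted p under 0.05 there were 7 members, against 30.6% of all genes. Each of these shares was below that of all genes tested. The median log2 fold change was −0.04 over the members and 0.02 over all genes tested, with 18 members above 0 and 26 below.

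**Figure D1:**
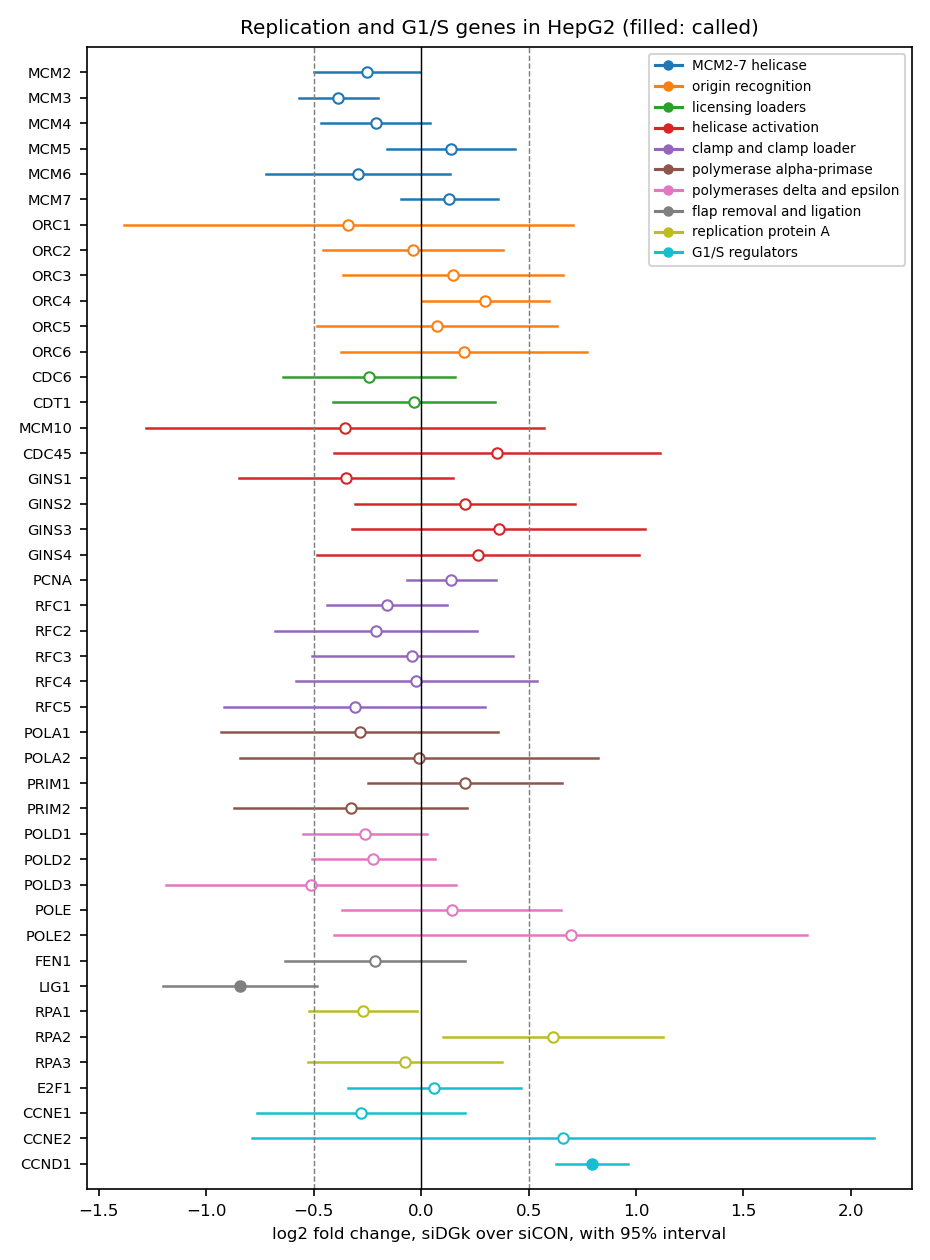
Log2 fold change of each of the 44 genes in siDGk over siCON cells, with its 95% interval from edgeR's fit and colored by role. Filled points are called; dashed lines mark the fold change threshold of 0.5 in each direction. CCND1 at 0.79 and LIG1 at −0.84 are the filled points.

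The intervals give the precision of these values. For 34 members the 95% interval of the log2 fold change lay between −1 and 1, against 57.1% of all genes tested, and for 9 it lay between −0.5 and 0.5, against 22.0%. The other 10 members had an interval that passed −1 or 1, among them LIG1 and RPA2. Members with few counts had wider intervals. The 10 members with a mean under 10 CPM had a median standard error of 0.38, and the other 34 a median of 0.20. Low members such as CCNE2, POLE2 and ORC1 were compared with little precision, and a log2 fold change of 1 lay within the intervals of CCNE2 and POLE2, and −1 within that of ORC1.

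Among the helicase subunits, MCM3 was at 153, 166 and 150 CPM in siCON and 118, 120 and 121 CPM in siDGk replicates 1, 2 and 3. Each siDGk library was below each siCON library. MCM3 (ENSG00000112118.18) lies on chromosome 6 of GRCh38 from 52264014 to 52284881, and differed by −0.39 on the log2 scale (SE 0.09; edgeR's quasi-likelihood test, adjusted p = 0.00379), under the fold change threshold for a call. Leaving out 1 library, siDGk replicate 2 included, moved this value between −0.41 and −0.34. MCM2 was at 74.5, 80.6 and 71.3 CPM in siCON and 56.6, 66.1 and 67.6 CPM in siDGk, and MCM4 was at 56.2, 61.0 and 62.3 CPM in siCON and 51.1, 50.7 and 52.9 CPM in siDGk. Both genes had non-overlapping groups with siDGk lower, but neither passed the adjusted p. MCM5, MCM6 and MCM7 had log2 fold changes of 0.14, −0.30 and 0.13, and their groups overlapped. With 1 library left out, MCM5 ran from 0.04 to 0.25, MCM6 from −0.48 to −0.14 and MCM7 from 0.05 to 0.22. Summed over the 6 subunits, the level was 449, 463 and 444 CPM in siCON and 401, 400 and 410 CPM in siDGk replicates 1, 2 and 3. All siDGk sums were below the siCON sums, in a description with no test. MCM3 alone went from a mean of 156 to 120 CPM, and MCM5 and MCM7 did not share the lower direction. Fewer cells that express a gene and less RNA of it per cell cannot be told apart in such bulk libraries.

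None of the 6 origin recognition subunits was called, in edgeR's test or in DESeq2, against 14.1% of all genes, and 1, ORC4, had an unadjusted p under 0.05, against 30.6%; with 6 genes such counts say little. ORC4 was at 51.1, 39.9 and 40.7 CPM in siCON and 59.2, 53.7 and 49.4 CPM in siDGk, where siDGk replicate 3 was below siCON replicate 1. Its log2 fold change was 0.30, that of ORC1 was −0.34, and ORC2, ORC3, ORC5 and ORC6 were at −0.04, 0.15, 0.07 and 0.20. The loaders CDC6 and CDT1 had log2 fold changes of −0.24 and −0.03, with overlapping groups. Of the 6 helicase activators none was called in edgeR's test or in DESeq2, and 0 had an unadjusted p under 0.05, against the same 14.1% and 30.6%. GINS1 was below its siCON range in each siDGk library and GINS3 above it, with log2 fold changes of −0.35 and 0.36. MCM10, CDC45, GINS2 and GINS4 overlapped between groups, and GINS4 went from 0.26 to −0.11 without siDGk replicate 2.

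PCNA, the sliding clamp, was at 132, 117 and 134 CPM in siCON and 142, 155 and 126 CPM in siDGk replicates 1, 2 and 3. Its groups overlapped, and the 95% interval of its log2 fold change ran from −0.07 to 0.35. The 5 clamp loader genes RFC1, RFC2, RFC3, RFC4 and RFC5 had log2 fold changes of −0.16, −0.21, −0.04, −0.02 and −0.31 with overlapping groups. Without 1 library RFC1 ran from −0.32 to −0.07, RFC2 from −0.37 to −0.01 and RFC5 from −0.51 to −0.07, and RFC3 and RFC4 changed sign. Of polymerase alpha-primase, only PRIM2 had non-overlapping groups, lower in siDGk, at a log2 fold change of −0.33 that did not pass the adjusted p, and POLA1, POLA2 and PRIM1 were at −0.29, −0.01 and 0.20. Without 1 library POLA1 ran from −0.56 to −0.05 and PRIM1 from 0.06 to 0.33, and POLA2 changed sign. POLD1, the catalytic subunit of polymerase delta, was at 44.9, 45.9 and 48.6 CPM in siCON and 35.3, 39.5 and 41.6 CPM in siDGk. Its groups did not overlap, and its log2 fold change of −0.26 did not pass the adjusted p. POLE2 had the highest log2 fold change of the polymerase subunits, 0.70, with a 95% interval from −0.40 to 1.80 and siDGk replicate 2 the highest library at 6.65 CPM. Without that library it was 0.28. POLD3 had the lowest, −0.51, with a 95% interval from −1.19 to 0.16, and was at −0.20 without siCON replicate 1. POLD2 and POLE, at −0.22 and 0.14, had overlapping groups. With 1 library left out, POLD2 ran from −0.37 to −0.08. At −0.37, without siCON replicate 2, POLD2 passed the adjusted p (0.0404 in edgeR's test) but not the fold change threshold.

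LIG1 (ENSG00000105486.13), on chromosome 19 of GRCh38 from 48115445 to 48170603, was at 39.0, 39.1 and 30.4 CPM in siCON and 19.8, 20.4 and 20.3 CPM in siDGk replicates 1, 2 and 3. All siDGk libraries were nearly level with each other and below the lowest siCON library, siCON replicate 3. The gene fell from 36.2 ± 4.99 to 20.2 ± 0.316 CPM (SD, n = 3), −0.84 in log2 (SE 0.17; edgeR's quasi-likelihood test, adjusted p = 0.00141), lower in 3 of 3 siDGk libraries. Without siDGk replicate 2 it was −0.85, and the gene was still called. FEN1, the nuclease that trims the flap before LIG1 seals the nick, had overlapping groups and a log2 fold change of −0.22 (−0.43 to −0.04 without 1 library).

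Of the replication protein A subunits, which coat single-stranded DNA, RPA2 had a log2 fold change above 0, and RPA1 and RPA3 below. RPA1 was at 64.5, 58.8 and 63.1 CPM in siCON and 51.9, 53.5 and 49.2 CPM in siDGk. RPA2 was at 11.8, 10.8 and 14.3 CPM in siCON and 16.5, 24.9 and 15.0 CPM in siDGk. Neither gene's groups overlapped, with RPA1 lower and RPA2 higher in siDGk. Their log2 fold changes of −0.27 and 0.61 did not pass the adjusted p (0.131 and 0.0889 in edgeR's quasi-likelihood test), and RPA3 had overlapping groups. Without siDGk replicate 2, its highest library, RPA2 was at 0.36.

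CCND1 (ENSG00000110092.3), on chromosome 11 of GRCh38 from 69641156 to 69654474, was at 287, 259 and 306 CPM in siCON and 503, 471 and 505 CPM in siDGk replicates 1, 2 and 3. Every siDGk library was well above the highest siCON library. The gene rose from 284 ± 23.7 to 493 ± 18.9 CPM (SD, n = 3), 0.79 in log2 (SE 0.08; edgeR's quasi-likelihood test, adjusted p = 8.34e-07), higher in 3 of 3 siDGk libraries. Without siDGk replicate 2 the value was 0.83. The study's supplement also lists CCND1 among cytokine signaling genes that it ranked on these libraries, so the direction of CCND1 is not independent evidence for that pathway. The 44 genes were not chosen by that ranking. The other G1/S regulators were not called. E2F1 was at 20.2, 20.8 and 22.7 CPM in siCON and 23.7, 24.6 and 18.1 CPM in siDGk, with overlapping groups, and CCNE1 had a log2 fold change of −0.28 (−0.435 to −0.025 without 1 library). CCNE2, the other cyclin E gene, lay between 1.12 and 4 CPM in the 6 libraries with overlapping groups, and its interval ran from −0.79 to 2.11.

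Over the whole set, the groups did not overlap for 11 of the 44 members, against 36.0% of all genes tested. Of these, 3 were higher in siDGk cells, against 18.7%, and 8 were lower, against 17.3%; the lower share was thus near that of all genes. The summed level of the 44 genes was 1678, 1583 and 1685 CPM in siCON and 1775, 1807 and 1730 CPM in siDGk replicates 1, 2 and 3. Without CCND1 it was 1390, 1324 and 1379 CPM in siCON and 1272, 1336 and 1226 CPM in siDGk. The siDGk sums were higher with CCND1 counted, and without it the groups overlapped through siDGk replicate 2. That library was the highest of its group for 21 of the 44 members, and siDGk replicate 3 the lowest for 24. The median log2 fold change of the members was −0.12 without siDGk replicate 2, without siDGk replicate 1 and without siCON replicate 1 alike, and turned to 0.05 without siCON replicate 2.

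**Figure D2:**
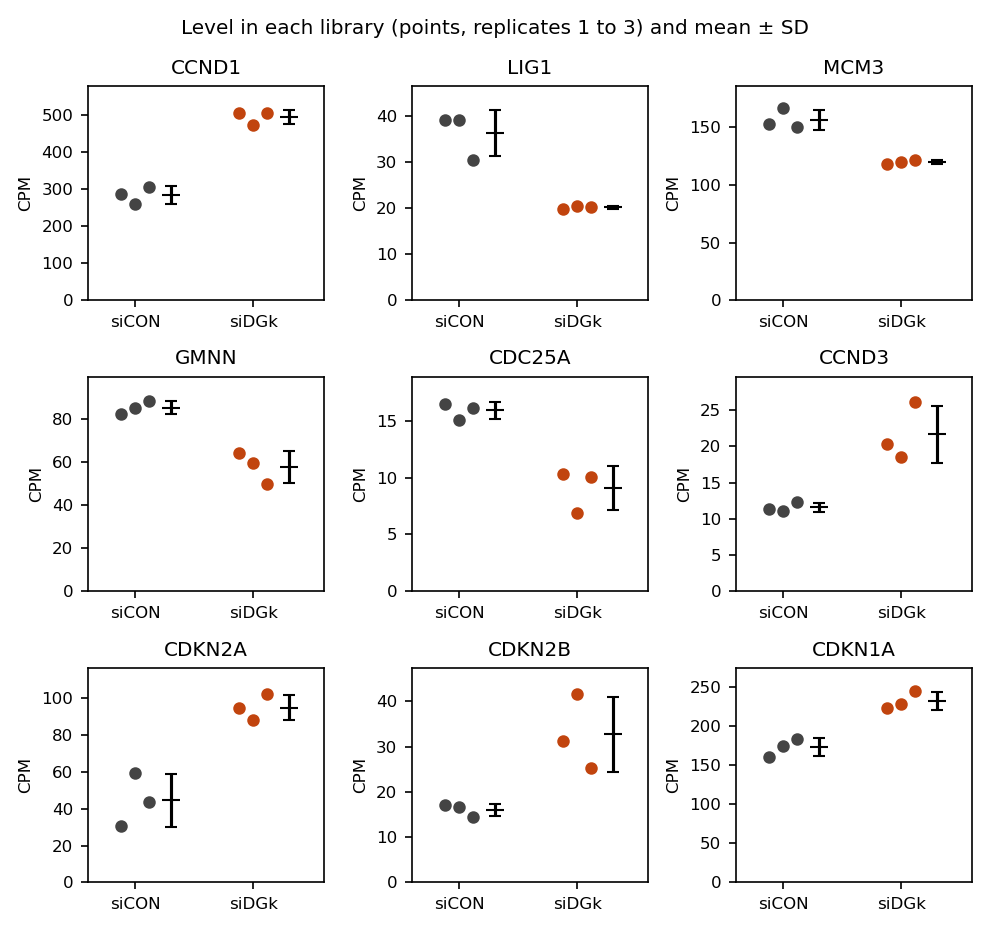
Level in CPM of 9 genes in each library, with points for replicates 1 to 3 of siCON (grey) and siDGk (orange-red) and bars for the mean ± SD. CCND1, CCND3, CDKN2A, CDKN2B and CDKN1A are higher and LIG1, MCM3, GMNN and CDC25A lower in all 3 siDGk libraries.

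Levels of different genes were compared per kilobase (kb) of exon length in Gencode 44. The paper names an earlier Gencode version for its alignment, so the order holds for the lengths used here. In siCON cells PCNA was the most abundant member at 91.1 ± 6.68 CPM per kb, followed by CCND1 at 59.7 ± 4.97, MCM3 at 42.9 ± 2.36, MCM7 at 18.2 ± 2.06 and MCM2 at 16.0 ± 0.998 CPM per kb (SD, n = 3). The last 2 of these did not differ beyond their spread. In siDGk cells CCND1, at 103.5 ± 3.98 CPM per kb, and PCNA, at 100.4 ± 10.3 CPM per kb, were within each other's spread, with MCM3 next at 32.9 ± 0.455 CPM per kb (SD, n = 3). At the lower end CCNE2 and POLA2 were at 0.433 ± 0.248 and 0.439 ± 0.171 CPM per kb in siCON (SD, n = 3). Reads that overlap several genes are left out by default in the authors' counting, and 8 of the 44 genes share over 10% of their exon bases with another gene in Gencode 44, and their levels are less certain. Of the genes named in this order, CCNE2 shares 37.1%, MCM2 23.6%, POLA2 21.3%, CCND1 10.4% and MCM7 8.5%. LIG1, called but not named in this order, shares 3.7%.

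**Figure D3:**
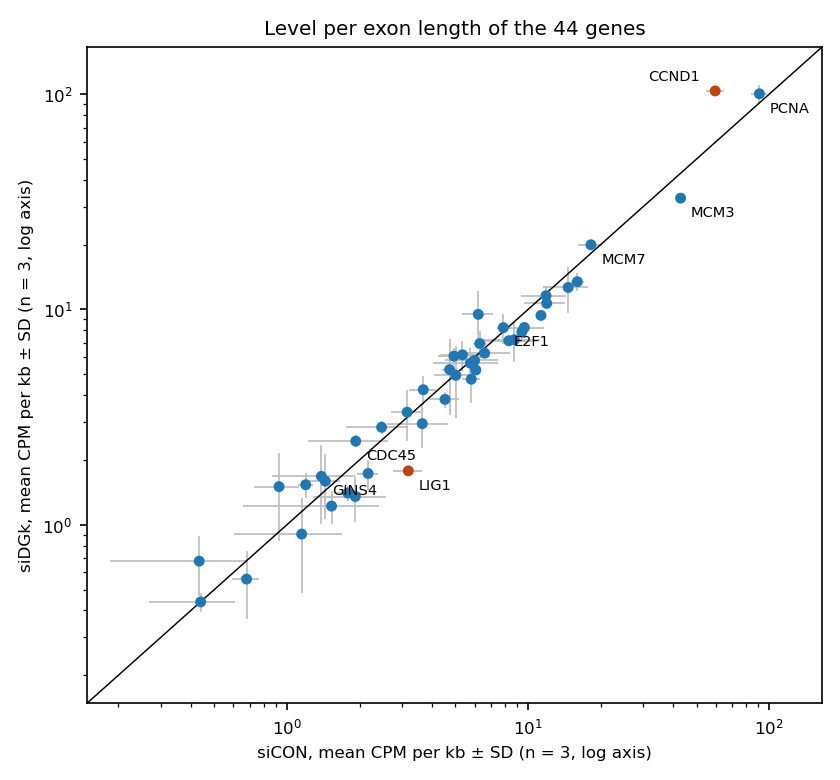
Mean level of each of the 44 genes in CPM per kb of exon length, siCON on the horizontal and siDGk on the vertical log axis, with SD over 3 libraries as bars. The line marks equal levels; the called genes CCND1, above it, and LIG1, below it, are red.

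Promoter windows from RefSeq on GRCh38.p14, 250 bases before to 50 after each gene start, were given for 36 of the 44 members. No entry was matched for MCM4, MCM5, GINS4, POLD3, RPA2, RPA3, CCNE2 and CCND1. Windows were searched on both strands for the E2F motif in 4 spellings, TTTCCCGC, TTTCGCGC, TTTGCCGC and TTTGGCGC. A match was found for 18 of the 36 members (50%) and for 3.99% of the 27305 genes with a window (3.31% of all 35116 windows). The stretches before the RefSeq start of LIG1, the called member with a window, of MCM3, which passed the adjusted p, of E2F1 and of MCM6, the member with most matches, are printed 5′ to 3′ on the gene's strand, with the motif in capitals. They lie on the minus strand at chr19:48170430-48170479 for LIG1, chr6:52284888-52284937 for MCM3, chr20:33686386-33686435 for E2F1 and chr2:135876514-135876603 for MCM6.
LIG1: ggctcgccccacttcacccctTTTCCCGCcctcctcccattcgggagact
MCM3: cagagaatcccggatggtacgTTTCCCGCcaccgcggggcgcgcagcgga
E2F1: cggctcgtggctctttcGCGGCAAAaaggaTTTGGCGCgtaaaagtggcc
MCM6: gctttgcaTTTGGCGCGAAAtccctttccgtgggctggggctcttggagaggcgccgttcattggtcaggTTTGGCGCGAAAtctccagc
MCM3 held a further match, TTTCGCGC, outside the printed stretch. The match of LIG1 began 114 bases before its RefSeq start and that of MCM3 174 bases before its own, where both read TTTCCCGC. The RefSeq starts of LIG1 and MCM3 lie inside the spans of these genes in Gencode 44. The span of LIG1 holds its printed stretch, and that of MCM3 does not. E2F1 held TTTGCCGC on the opposite strand and TTTGGCGC on its own strand. In MCM6 TTTGGCGC overlapped TTTCGCGC of the opposite strand in each of its capital runs, so its 4 matches fill 2 places. The median log2 fold change was −0.02 over the 18 members with a match and −0.21 over the 18 with a window and no match, with 1 and 0 members called, against 14.1% of all genes. These matches describe the windows and were not tested as binding sites.

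Other genes of the pathway were taken from lists of replication factors and G1/S regulators outside the 44. Of 40 other replication factors 39 were tested, and 2 were called (5.13%, against 14.1% of all genes), both lower (against 6.68%), with a median log2 fold change of −0.10. GMNN, which encodes geminin, the inhibitor of CDT1, was at 82.5, 85.0 and 88.7 CPM in siCON and 64.1, 59.5 and 49.9 CPM in siDGk replicates 1, 2 and 3. CHAF1A, the large subunit of the histone chaperone CAF-1, was at 16.7, 19.7 and 23.0 CPM in siCON and 11.4, 13.9 and 7.78 CPM in siDGk. The groups did not overlap for either gene, and their log2 fold changes were −0.56 and −0.85. Without siDGk replicate 3 neither was called, GMNN at a log2 fold change of −0.47 and CHAF1A at an adjusted p of 0.0771 in edgeR's test, and the count of the list was 0. Without siCON replicate 2, without siCON replicate 3 and without siDGk replicate 1, CHAF1A was at an adjusted p of 0.0502, 0.117 and 0.0557 in edgeR's test, so the count was 1 each time.

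Of 34 other G1/S control genes 33 were tested, with a median log2 fold change of 0.07. Of these, 3 were called higher (against 7.42% of all genes) and 2 lower (against 6.68%). The share called, 15.2%, was near the 14.1% of all genes. CDKN2A, whose products include the CDK4 and CDK6 inhibitor p16, was at 30.8, 59.5 and 43.5 CPM in siCON and 94.5, 88.3 and 102 CPM in siDGk replicates 1, 2 and 3. CDKN2B, its neighbor that encodes p15, was at 17.0, 16.6 and 14.5 CPM in siCON and 31.2, 41.7 and 25.4 CPM in siDGk. CCND3, which encodes cyclin D3, was at 11.3, 11.1 and 12.3 CPM in siCON and 20.4, 18.5 and 26.1 CPM in siDGk. All 3 genes were higher in each siDGk library, with log2 fold changes of 1.09, 1.02 and 0.91 and, in edgeR's quasi-likelihood test, adjusted p of 1.35e-04, 0.0012 and 0.00568. CDKN2A shares 15.3% of its exon bases with other genes. CDC25A, the phosphatase that activates CDK2, was at 16.5, 15.1 and 16.1 CPM in siCON and 10.3, 6.89 and 10.1 CPM in siDGk, and TFDP2, a dimer partner of E2F factors, was at 33.9, 23.7 and 32.6 CPM in siCON and 20.3, 19.2 and 12.4 CPM in siDGk. Both were lower in each siDGk library, with log2 fold changes of −0.80. The adjusted p of CDC25A in edgeR's test missed the threshold without siCON replicate 1 (0.091), without siCON replicate 3 (0.0893) and without siDGk replicate 2 (0.117). That of TFDP2 missed it in edgeR's test without siCON replicate 1 (0.0705), without siCON replicate 3 (0.0746) and without siDGk replicate 3 (0.0534). The count of the list was 3 without siCON replicate 1 and without siCON replicate 3.

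CDKN1A, which encodes the CDK inhibitor p21, was at 161, 175 and 183 CPM in siCON and 223, 228 and 245 CPM in siDGk replicates 1, 2 and 3. Its groups did not overlap, and its log2 fold change of 0.42, at an adjusted p of 0.00125 in edgeR's quasi-likelihood test, was under the threshold for a call. CDKN1B, RB1, CDK2, CDK4, CDK6 and CCNA2 did not pass the adjusted p, with log2 fold changes of 0.27, −0.10, −0.08, 0.23, 0.10 and −0.13. Without siCON replicate 2, CDKN1B was at 0.37 and passed it (0.0265 in edgeR's test). With 1 library left out, RB1 ran from −0.16 to −0.04 and CDK2 from −0.16 to −0.05. CDK6 ran from 0.03 to 0.17 and CCNA2 from −0.26 to −0.01. The groups did not overlap for CDKN1B and CDK4, both higher in siDGk; CDK4 shares 44.2% of its exon bases with other genes.

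Among 15 genes of cytosolic dNTP supply, which provide the precursors of replication, 3 were called (20%, against 14.1% of all genes), all higher (against 7.42%): GUK1, NME2 and DCTPP1, with log2 fold changes of 0.67, 0.68 and 0.51. The study's supplement lists these 3 among nucleotide metabolism genes ranked on the same libraries, so their direction is not independent evidence. NME2 and DCTPP1 fell short of the fold change threshold without siDGk replicate 3, at 0.48 and 0.38, which brought the count of the list to 1, and so did DCTPP1 without siCON replicate 1 or siCON replicate 2, at 0.47 and 0.49, and with DESeq2's shrunken fold changes, at 0.476. NME2 overlaps other genes in 24.2% of its exon bases and DCTPP1 in 41.2%, and their counts are less certain. RRM2 and TYMS, which make deoxynucleotides and thymidylate, had log2 fold changes of 0.38 and −0.18 and did not pass the adjusted p, and TYMS shares 47.9% of its exon bases. Among 36 mitotic genes 6 were called (16.7%, against 14.1% of all genes), all lower (against 6.68%), and the median log2 fold change was −0.37. AURKA, a mitotic kinase, at −1.06 and TOP2A, a topoisomerase, at −0.83 were called under each alternative. PLK1, another mitotic kinase, at −0.63 was not called without siCON replicate 3 (adjusted p of 0.0926 in edgeR's test). CKAP2 at −0.57 and PRC1 at −0.56 were each called in 1 of the 6 fits that left out a library, that without siCON replicate 3, and BUB1, a checkpoint kinase, at −0.59 in none of these 6. PRC1 shares 61.9% and PLK1 12.8% of exon bases with other genes, and their counts are less certain. The mitotic count was 3 without siCON replicate 1, and likewise without siDGk replicate 1 and without siDGk replicate 3. MKI67, a marker of dividing cells, was at 41.5, 26.4 and 31.5 CPM in siCON and 21.0, 36.6 and 19.6 CPM in siDGk replicates 1, 2 and 3. Its groups overlapped through siDGk replicate 2, and its log2 fold change of −0.37 did not pass the adjusted p (0.306 in edgeR's test). Leaving out 1 library gave values from −0.71, called, without siDGk replicate 2 to −0.17 without siCON replicate 1.

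**Figure D4:**
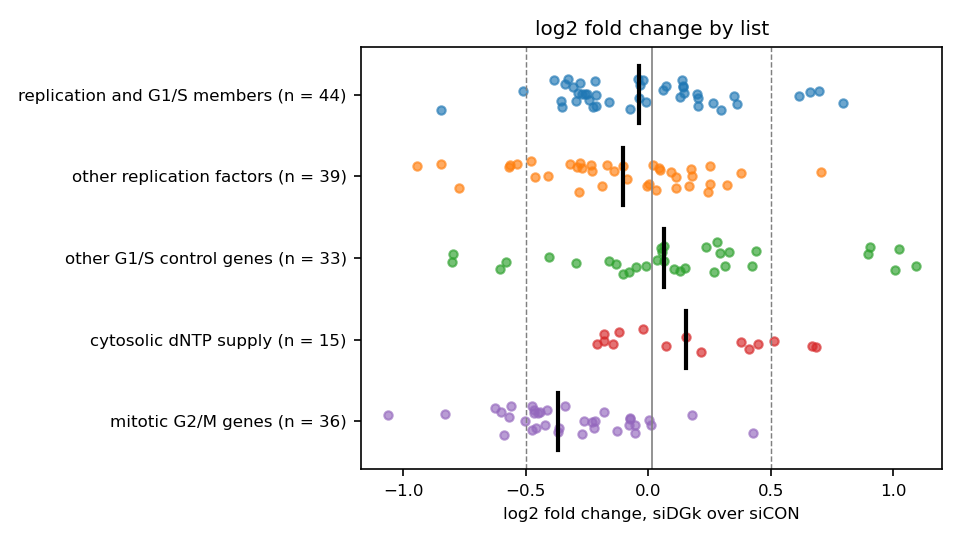
Log2 fold change of each tested gene in siDGk over siCON cells, for the 44 members and 4 other lists; vertical scatter within a list has no meaning. Black bars are medians, from −0.37 for mitotic genes to 0.15 for dNTP supply; the grey line is the median of all genes tested, and dashed lines mark the fold change threshold.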

How the data were processed

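By the submitters' notes, reads left after removal of spike-ins, adapters, rRNA and tRNA were aligned by STAR 2.6.1 to GRCh38, and gene counts came from featureCounts 1.6.5. The values deposited by the authors are whole counts, neither normalized nor pooled. The library kit and its strandedness are not given in the sources used here, so reads of overlapping genes on opposite strands cannot be told apart. Counts were analysed in R 4.3.3 with edgeR 4.0.16: filterByExpr (minimum count 10), TMM scaling, a quasi-likelihood fit with robust dispersions and condition as its only term, and Benjamini-Hochberg adjustment over all 14476 genes tested. The 95% intervals used the standard error and the fit's degrees of freedom. Exon lengths and coordinates came from Gencode 44 on GRCh38, in which 98.8% of the genes were matched by ID. Replicates differed by more than sampling noise (10.7 to 25.7 times, as chi-square over degrees of freedom). Intervals cover the spread between these cultures. Members and lists were chosen with earlier results of these data known. Genes named are all members, DGUOK, called genes of the other lists and 10 G1/S and proliferation genes chosen whatever their values, with E2F2 and COL1A2 added after their values were seen; the marker genes were listed for their cell types. Alternatives were RLE and upper-quartile scaling, DESeq2 1.42.0 and its shrunken fold changes, no count filter, a mean above 10 CPM, replicate number as a block, the adjusted p alone, and each library left out. The scripts were tested on simulated data.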

Additional observations from a re-analysis of the deposited data

How the results depend on the processing

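The calls of CCND1 and LIG1 held under every alternative run, and no other member was called except MCM3 at the adjusted p alone, which made 2 members lower. Leaving out 1 library moved CCND1 between 0.73 and 0.85 and LIG1 between −0.951 and −0.785, and the members called stayed at 1 higher and 1 lower. Over all genes, calls ran from 1704 to 1935 without 1 library and were 2151 with DESeq2. DGUOK ran from −2.72 to −2.42 without 1 library and was −2.25 with DESeq2's shrunken fold changes. The member median turned from −0.04 to 0.05 without siCON replicate 2. The replicate numbers did not pair the libraries: the correlations between same-numbered libraries after removal of group means were 0.024, 0.0166 and −0.00224. With the replicate block, 2077 genes, 1 member higher and 1 member lower were called, DGUOK was −2.584, and POLA2, at −0.01 otherwise, was 0.052; BUB1 was not called (adjusted p of 0.0519 in edgeR's test), so 5 mitotic genes were.

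Without 1 library, the number called ran from 0 to 3 among other replication factors, from 3 to 7 among other G1/S control genes, from 1 to 3 for dNTP supply and from 3 to 5 for mitotic genes; each such fit had fewer libraries. With DESeq2, 4 mitotic genes were called, not 6, and with its shrunken fold changes DCTPP1 was not called. Of the 44 members, 14 changed sign in at least 1 fit, none of them called. Their log2 fold changes without 1 library ran from −0.70 to 0.11 for ORC1, −0.20 to 0.24 for ORC2, −0.17 to 0.39 for ORC3, −0.15 to 0.245 for ORC5, −0.012 to 0.40 for ORC6, −0.20 to 0.10 for CDT1, −0.78 to 0.088 for MCM10, −0.105 to 0.62 for GINS4, −0.17 to 0.17 for RFC3, −0.35 to 0.16 for RFC4, −0.22 to 0.34 for POLA2, −0.10 to 0.36 for POLE, −0.27 to 0.13 for RPA3 and −0.018 to 0.18 for E2F1. The cause was not tested. Among the other 27 named genes, 11 gained or lost a call in at least 1 fit (BUB1, CDC25A, CHAF1A, CKAP2, DCTPP1, GMNN, MKI67, NME2, PLK1, PRC1 and TFDP2) and none changed sign.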

Other observations

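E2F2, an activating E2F factor outside the 44 genes, had 66, 66 and 21 counts in siCON and 31, 72 and 0 counts in siDGk replicates 1, 2 and 3. The absence from siDGk replicate 3, the deepest library, contrasted with 72 counts in siDGk replicate 2, and the groups overlapped. Among the genes tested, 93 had 0 counts in at least 1 siDGk library and at least 50 in another, and 34 did so among siCON libraries. COL1A2, at 124, 169 and 0 counts in siDGk replicates 1, 2 and 3, was another of these. E2F2 and COL1A2 were picked here after their values were seen.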
